A study of Mus musculus with 20 samples.

Results

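Universal Oct4 sites without Sox17 were defined here as peaks of the Oct4 (Pou5f1) list of untreated F9 cells whose interval overlapped by at least 1 bp a peak in each of the 8 other Oct4 lists, and no peak of the Sox17 list of F9 cells treated with retinoic acid (RA). Of 64582 Oct4 peaks in F9 cells, 13487 (20.9%) lay in all 9 Oct4 lists. Of these, 6268 had no Sox17 F9+RA peak and are the members described here (46.5% of the universal sites and 9.71% of the F9 list). The other 7219 had one and serve as the comparison. The choice rests on Oct4 presence in 9 lists and on Sox17 presence in 1 list, so neither is a finding.

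Oct4 is a POU-domain transcription factor required for pluripotency. It commonly binds DNA next to a Sox protein: with Sox2 at enhancers of pluripotent cells, and with Sox17 in primitive endoderm, the extraembryonic lineage that arises beside the pluripotent epiblast. A lysine in the DNA-binding domain of Sox2 is a glutamate in Sox17, and exchanging these residues is known to alter how each protein pairs with Oct4.

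The series mapped these factors by chromatin immunoprecipitation and sequencing. KH2 mouse embryonic stem (ES) cells, grown with serum and leukemia inhibitory factor, received doxycycline at 1 µg/ml to express V5-tagged Sox2, Sox2KE, Sox17EK or Sox17. Sox2 and Sox17EK carry the lysine and are called lysine proteins below, and Sox2KE and Sox17 carry the glutamate. There were 8 ES Sox libraries (replicates A and B of each protein) and 7 ES Oct4 libraries (A and B of the Sox2, Sox2KE and Sox17EK lines and A of the Sox17 line). F9 cells, an embryonal carcinoma line, gave 1 Oct4 library untreated, and 1 Oct4 and 1 Sox17 library after RA at 1 µM, labelled as differentiated toward primitive endoderm. The V5 antibody alone is named for Sox2, Sox2KE and Sox17EK, the Sox17 and V5 antibodies for Sox17 in ES cells, and the Oct4 and V5 antibodies for Oct4 in ES cells. In ES cells a peak of the tagged Sox protein in an Oct4 list therefore cannot be set apart from an Oct4 peak. Each protein was expressed in a line of its own, so the protein and its line cannot be told apart. The labelled cell types were not checked by marker genes, since no gene annotation of build mm9 was used here.

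The lists held from 5836 peaks (Sox17 ES B) to 84196 (Oct4 F9+RA). Each peak carries the authors' score, which starts at 50 in every list and rises with the strength of the peak. Scores of different lists are not comparable, because the read depth is unknown. Within a list a peak is given by its percentile rank, where 100 stands for the strongest. Nothing in the labels ties replicates A and B to separate cultures. The p-values below thus speak of the spread among these libraries alone, which may be technical. Tests of lysine against glutamate count the replicates of a protein as separate units, although the residue varies only between proteins.

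The label "without Sox17" holds for F9+RA cells alone. In ES cells, Sox17 had a peak in at least 1 of its 2 libraries at 2561 members (40.9%), against 15.7% of all Oct4 F9 peaks and 55.9% of the universal sites with a Sox17 F9+RA peak. Sox2 had one at 4481 members (71.5%), against 31% of all Oct4 F9 peaks and 54.2% of the comparison sites.

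Most members carried an induced Sox protein in ES cells. A peak in at least 1 of the 8 ES Sox libraries lay at 6200 of the 6268 members, and 68 (1.08%, exact 95% interval 0.843 to 1.37) had none, against 0.291% of comparison sites and 36.3% of all Oct4 F9 peaks. This count rests on Sox2KE B, the longest of the 8 lists. Without that library 483 members (7.71%) had none, against 9.92% of comparison sites and 47.7% of all Oct4 F9 peaks, so the order of members and comparison sites turned around. Leaving out any other 1 library gave 69 to 98 members. The median member lay in 5 of the 8 lists, the median comparison site in 4 and the median Oct4 F9 peak in 1. A peak in all 8 lists was found at 591 members (9.43%, 8.72 to 10.2), close to the 9.68% of comparison sites and above the 2.16% of all Oct4 F9 peaks. Intervals over sites cover counting error only.

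**Figure D1:**
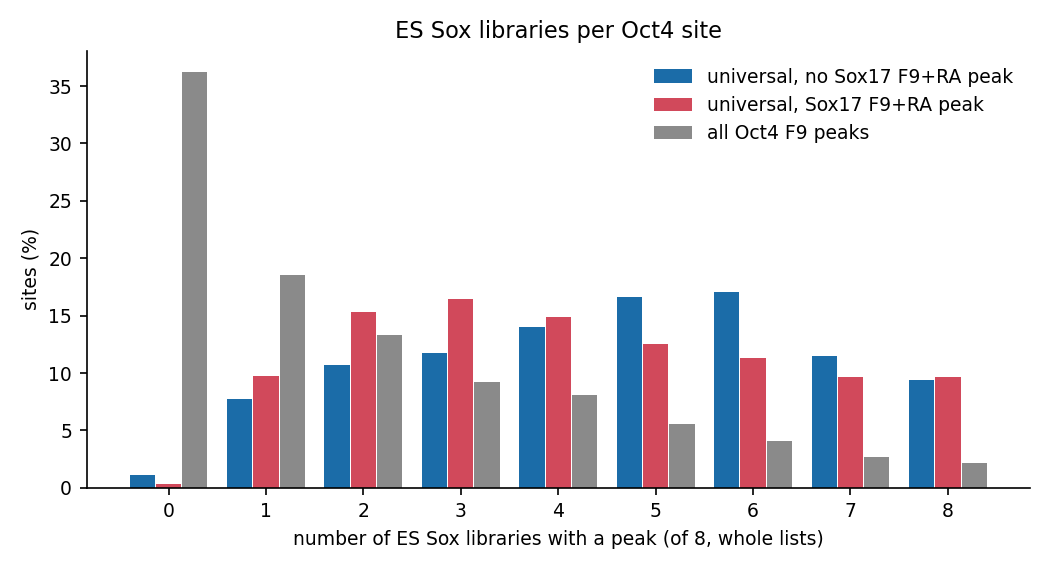
The x axis gives the number of ES Sox libraries, of 8, with a peak at a site, and the y axis the percentage of sites. Bars are members (blue), universal sites with a Sox17 F9+RA peak (red) and all Oct4 F9 peaks (grey): members peak at 6 libraries (17.1%), comparison sites at 3 (16.5%), and all Oct4 F9 peaks at 0 (36.3%).

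In the whole lists, Sox2 had a peak at 64.7% (A) and 62.9% (B) of the members, against 25.9% and 22.9% of all Oct4 F9 peaks. Sox17EK, the form of Sox17 with the lysine, had one at 69.9% (A) and 51.3% (B), against 29.3% and 20.3%. Sox2KE, the form of Sox2 with the glutamate, had one at 64.8% (A) and 92.6% (B), against 25.6% and 49.1%. Sox17 had one at 36.6% (A) and 19.4% (B), against 13.8% and 6.89%. All 8 libraries thus lay at members more often than at Oct4 F9 peaks at large, by 1.89-fold (Sox2KE B) to 2.81-fold (Sox17 B). Members were required to lie in every ES Oct4 list and Oct4 F9 peaks at large were not, so this excess is not independent of the choice. It is not particular to members either: all 8 libraries were also more frequent at comparison sites than at all Oct4 F9 peaks, for example Sox17 A at 51.3%. The Sox2KE B list is the longest of the 8, with 71693 peaks, and the Sox17 lists are the shortest, with 10301 and 5836, so these shares do not order the proteins.

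Both replicates of Sox2 had a peak at 56.1% of the members (17.8% of all Oct4 F9 peaks). The same held for Sox2KE at 63.4% (24.4%), for Sox17EK at 44.4% (14.4%) and for Sox17 at 15.2% (4.96%). The most frequent combination was a peak in all 6 libraries of Sox2, Sox2KE and Sox17EK and in neither Sox17 library, at 661 members (10.5%, exact 95% interval 9.80 to 11.3). It was seen at 229 comparison sites (3.17%, 2.78 to 3.603) and at 1.95% of all Oct4 F9 peaks. A peak in Sox2KE B alone was found at 415 members (6.62%), at 9.63% of comparison sites and at 11.4% of all Oct4 F9 peaks, so here the members lay below the F9 list as a whole.

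At equal list length, the lysine proteins lay at more members than the glutamate proteins. Among the 5836 strongest peaks of each list, Sox2 A and B had a peak at 30.4% and 33.1% of the members, where all Oct4 F9 peaks had 6.52% and 7.06%. Sox17EK A and B had one at 32.2% and 25.6% (8.19% and 6.9% of all Oct4 F9 peaks). Sox2KE A and B stood at 20.2% and 21.2% (5.34% and 7.42%), and Sox17 A and B at 22.9% and 19.4% (8.48% and 6.89%). Every lysine library was above every glutamate library. The means were 30.3% ± 3.33 and 20.9% ± 1.497 (SD, n = 4 each), a difference of 9.42 percentage points. By an exact permutation test (two-sided) p was 0.0286, which no arrangement of 4 against 4 can undercut, and the Benjamini-Hochberg value over the 4 planned tests was 0.0381. Over all Oct4 F9 peaks the same means were 7.17% ± 0.717 and 7.03% ± 1.31. At comparison sites the order of the means was reversed, at 13.4% ± 1.19 for lysine and 26.2% ± 8.95 for glutamate libraries. Members were chosen to lack a peak of Sox17, a glutamate protein, in F9+RA cells. The difference at members is thus not independent of the choice. With whole lists, which differ in length, the difference was 8.83 points and did not pass (exact permutation p = 0.6). Leaving out any 1 of the 4 glutamate libraries kept the direction and gave an exact permutation p of 0.0571.

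**Figure D2:**
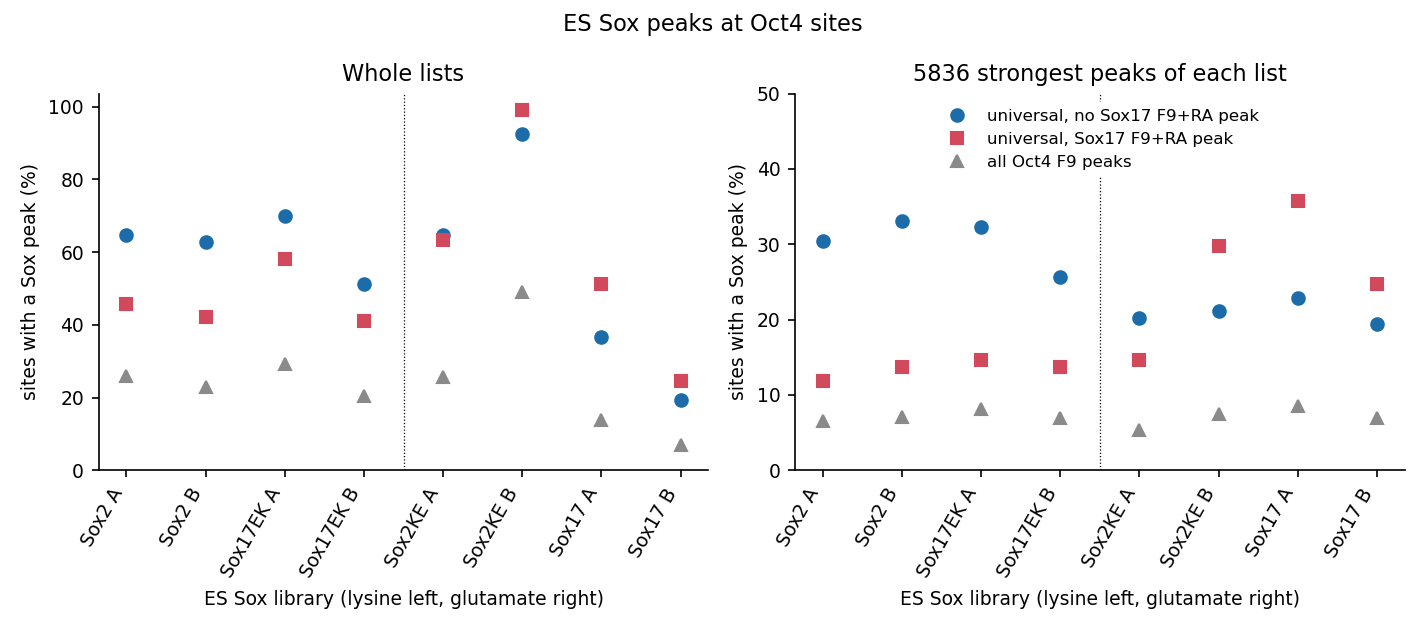
Each point is the percentage of sites (y axis) with a peak of 1 ES Sox library (x axis), for whole lists (left) and equal list length (right); blue circles are members, red squares universal sites with a Sox17 F9+RA peak and grey triangles all Oct4 F9 peaks. Blue lies above red in all 4 lysine libraries in both panels, and red above blue in Sox2KE B and both Sox17 libraries.

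The lysine and glutamate proteins were spread unequally over universal sites with and without a Sox17 F9+RA peak. Sox2 peaks of the whole lists were less frequent at sites with a Sox17 F9+RA peak, at 45.9% (A) and 42.1% (B), than at members. Sox17EK went the same way, at 58.2% and 40.9%. Sox17 in ES cells went the opposite way, at 51.3% and 24.7%, and Sox2KE stood at 63.5% and 99.0%. Members minus comparison sites came to 15.4 points ± 5.19 for the lysine libraries and -6.28 ± 6.57 for the glutamate libraries (SD, n = 4 each). Over all 8 libraries the mean difference was 4.57 points, higher at members in 5 of 8, and did not pass (exact two-sided sign-flip permutation p = 0.344, adjusted 0.344).

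The difference between lysine and glutamate libraries was tested by the log2 ratio of the shares, comparison sites over members. Sox17 is also the protein whose F9+RA peaks define these classes, so for Sox17 the residue and the protein cannot be told apart. Sox2 had a mean of -0.54 ± 0.060 and Sox17EK of -0.29 ± 0.043 (SD, n = 2). Sox2KE had a mean of 0.03 ± 0.090 and Sox17 of 0.42 ± 0.096 (SD, n = 2). All 4 lysine values were below all 4 glutamate values. Glutamate minus lysine was 0.64 (exact two-sided permutation p = 0.0286, the smallest possible, and 0.0381 adjusted over the 4 planned tests). Among the 5836 strongest peaks it was larger, at 1.42, with an exact permutation p of 0.0286. At that setting the Sox2KE replicates went opposite ways, with log2 ratios of -0.47 (A) and 0.49 (B). Leaving out both Sox17 libraries, whose antibodies differ, gave 0.45 (exact permutation p = 0.0667, the smallest that 4 against 2 can give, so no call was possible). Leaving out Sox2 B gave 0.59 with an exact permutation p of 0.0571.

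Comparison sites were wider than members, with a median Oct4 F9 peak of 1257 bp (quartiles 943.5 and 1669) against 950 bp (724 and 1297), and 699 bp in the whole F9 list. A wider interval meets a peak of any list more easily. Within the narrowest, middle and widest equal groups of universal sites the value of 0.64 was 0.70, 0.63 and 0.49. Within the groups of lowest, middle and highest Oct4 F9 score it was 0.52, 0.70 and 0.71. Each of these 6 values had an exact permutation p of 0.0286, the smallest possible. They come from the same libraries and from parts of the same sites, so they are not 6 separate tests. The part of width or score in the value was not tested.

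Sites held by 1 kind of residue were few. Peaks of all 4 lysine libraries without any of the glutamate libraries lay at 106 members (1.69%, exact 95% interval 1.39 to 2.04), at 8 comparison sites (0.111%, 0.0479 to 0.218) and at 1.38% of all Oct4 F9 peaks. The reverse, all 4 glutamate libraries without any lysine library, held at 8 members (0.128%, 0.0551 to 0.251), at 35 comparison sites (0.485%, 0.338 to 0.674) and at 0.136% of all Oct4 F9 peaks. Members were thus close to the F9 list as a whole in both classes, while the comparison sites lay below it in the first class and above it in the other. Both Sox2 and both Sox2KE libraries, with no library of a Sox17 form, had a peak at 191 members (3.05%), 1.57% of comparison sites and 2.11% of all Oct4 F9 peaks.

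Oct4 ranks showed how strongly the members were bound within each list. Members, chosen for presence in all 9 lists, had a median percentile rank of 80.2 in F9 cells and 81.0 in F9+RA cells. The ES medians for A and B were 86.7 and 72.7 (Sox2 line), 87.6 and 79.9 (Sox17EK line) and 79.2 and 63.9 (Sox2KE line), and the Sox17 line had 74.9. Longer lists give higher percentiles by their length, so these medians are not compared between libraries. The rank above 50 was reached in all 9 lists by 2291 members (36.6%) and the rank above 90 by 190 (3.03%), while 760 (12.1%) fell below 10 in at least 1 list. The corresponding shares of comparison sites were 52.1%, 4.39% and 6.62%.

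**Figure D3:**
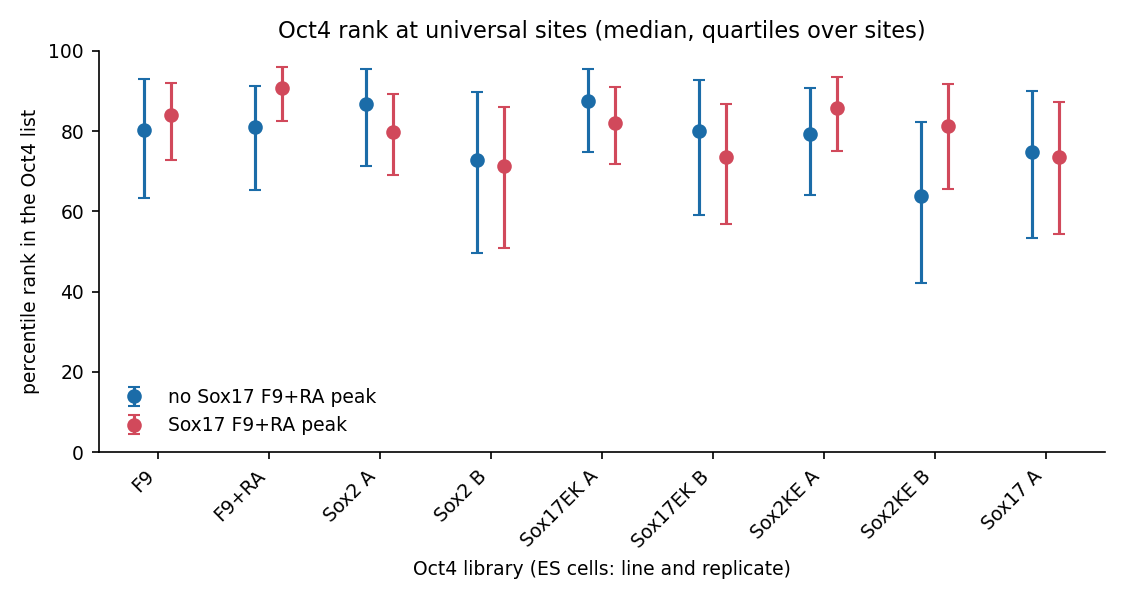
Points are the median percentile rank (y axis) of universal sites in each Oct4 list (x axis), with bars from the lower to the upper quartile over sites, for members (blue) and sites with a Sox17 F9+RA peak (red). Red is above blue in F9, F9+RA and both Sox2KE libraries and below it in the other 5 ES libraries.

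Members and comparison sites can be set side by side within a list. In F9+RA cells the median rank was 81.0 at members and 90.7 at comparison sites, and in F9 cells it was 80.2 and 83.9. With 1 library per condition and with Sox17 of the same F9+RA cells as the choice, these are descriptions without a test. Among the 1000 strongest Oct4 peaks, 479 in F9 cells and 234 in F9+RA cells lay at members, against 377 and 582 at comparison sites.

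In ES cells the same contrast went with the line. Members minus comparison sites came to 6.94 and 1.34 points for Sox2 (A and B), 5.58 and 6.35 for Sox17EK, -6.50 and -17.4 for Sox2KE and 1.32 for Sox17. Every library of a lysine line was above every library of a glutamate line, but the Sox17 line (1.32) and Sox2 line B (1.34) were nearly equal. This contrast was chosen with the values in view. The means were 5.05 ± 2.54 (n = 4) and -7.54 ± 9.42 (SD, n = 3), a difference of 12.6 points (exact two-sided permutation p = 0.0286, the smallest that 4 against 3 can give). Because the contrast was picked after its values were seen, this p-value is descriptive and is no evidence for it. Without Sox2KE line B the difference was 7.64, and no call is possible with 1 library fewer (smallest exact permutation p 0.0667 or 0.1). Requiring overlap of at least 50% of the shorter interval ended the call, with 12.6 points and an exact permutation p of 0.0571.

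The Sox2KE line also ordered the members differently from the other ES lines. Across the 6268 members, the Spearman rho of Oct4 scores was 0.76 between its 2 libraries and 0.58 to 0.88 among the 10 pairs of the other 5 ES libraries. Between a Sox2KE library and another ES library it was 0.10 to 0.51 (10 pairs). With F9 cells it was 0.16 (A) and 0.04 (B) for the Sox2KE line and 0.47 to 0.57 for the other 5 libraries. Across comparison sites the values with F9 were 0.34, 0.25 and 0.39 to 0.52. There, pairs of a Sox2KE library and another ES library had 0.29 to 0.68, and pairs of the other ES libraries 0.51 to 0.81. These ranges overlap, so the Sox2KE line was set apart less clearly at comparison sites than at members. These are descriptions across sites, which are not replicates. The 2 libraries of a line share its cells, and all points share the F9 interval.

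Members that also held the line's own Sox protein had stronger Oct4 peaks in that line. At the 4481 members with a Sox2 peak in either library, the median Oct4 rank in the Sox2 line was 91.9 (A) and 80.6 (B), and at the 1787 without it was 69.9 and 53.2. In the Sox2KE line it was 80.4 and 66.1 at the 5888 with a Sox2KE peak, and 51.5 and 28.8 at the 380 without. The Sox17EK line gave 91.3 and 85.6 with a peak (4808 members) and 73.3 and 59.4 without. The Sox17 line gave 86.5 with a Sox17 peak (2561 members) and 65.2 without. All 7 libraries went the same way, by 18.1 to 37.3 points (mean 25.9 ± 6.28, SD, n = 7). By exact sign-flip permutation (two-sided) p was 0.0156, the lower limit for 7 libraries, and 0.0381 when adjusted over the 4 planned tests. The V5 antibody is named for these Oct4 libraries too, and its part in the difference was not tested. Libraries of a line also share the Sox peaks that split the members. The 7 differences are therefore not independent units, as the test takes them to be, and the p-value overstates the evidence.

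The Sox protein of another line divided the Oct4 ranks less on average, by 9.33 points over 21 pairs of an Oct4 library and another line's protein, with a range from -5.82 to 24.3. In 6 of the 7 Oct4 libraries the own protein gave the largest difference. The exception was the Sox17 line, with 21.3 points for Sox17 and 22.9 for Sox17EK. Sox2 and Sox17EK divided each other's lines by somewhat less than the own protein did. Sox17EK peaks gave 19.8 and 24.3 points in the Sox2 line, and Sox2 peaks gave 14.3 and 20.2 in the Sox17EK line. Sox2KE peaks gave 28.8 and 37.3 points in the Sox2KE line and -5.82 to 5.51 elsewhere. This pattern was read from the data and not tested.

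**Figure D4:**
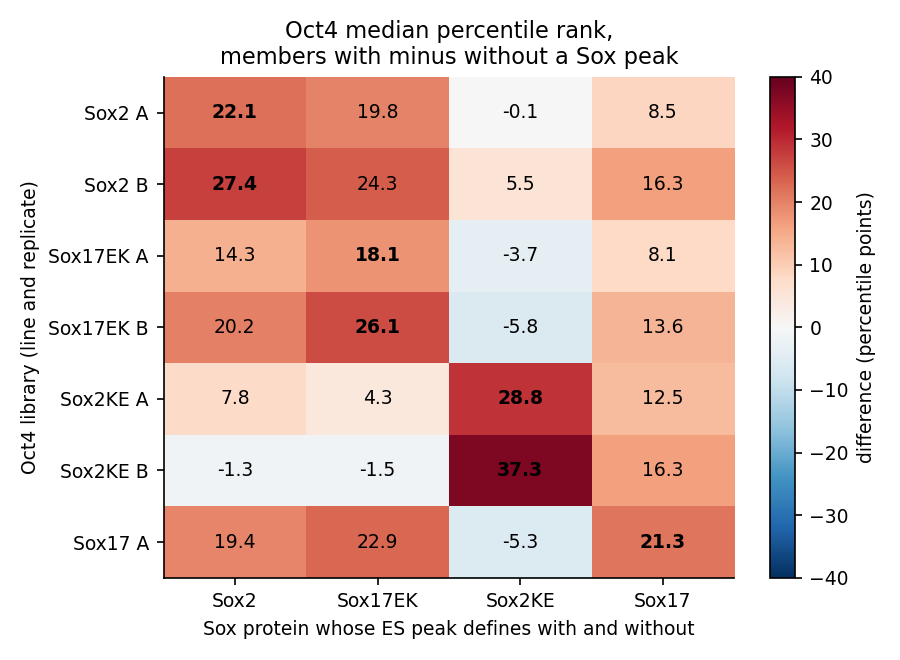
Each cell is the median Oct4 percentile rank of members with minus members without a peak of the Sox protein on the x axis (either ES library), in the Oct4 library on the y axis; colour gives the difference in percentile points, and bold marks the line's own protein. The Sox2KE column is high in the Sox2KE line (28.8 and 37.3) and between -5.8 and 5.5 in the other lines.

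From 1 ES Sox list upward, members in more lists had a higher mean percentile rank over the 9 Oct4 lists. The median of that mean was 60.6 at members in 1 list, 70.2 in 4, 80.6 in 6 and 90.7 at the 591 members in all 8, and it was 62.2 at the 68 members in none. The members in no ES Sox list stood above the median of all members in F9 cells, with a rank of 87.6, and in F9+RA cells, with 84.0. They stood below it in each of the 7 ES Oct4 libraries, with 39.0 to 76.2. The 106 lysine-only members had median ranks of 96.6 in F9 cells, 94.997 and 89.0 in the Sox2 line, and 96.2 and 94.3 in the Sox17EK line. They stood at 52.2 and 29.5 in the Sox2KE line. In the Sox17 line, where they have no Sox17 peak by definition, the median was 89.8. The 191 members of the Sox2 forms alone had medians (A and B) of 87.2 and 68.0 with Sox2, 84.3 and 63.4 with Sox2KE, 70.8 and 53.4 with Sox17EK, and 47.8 with Sox17 as the line's protein. Each class was chosen by Sox peaks of the same lines, so these ranks are not independent of the choice.

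The 10 members with the highest mean rank all had a peak in all 8 ES Sox lists. Their mean ranks were 99.6 to 99.7, and none fell below rank 98.9 in any Oct4 list. The first, on chromosome 14 at 86795133 to 86796381 (mm9), had Oct4 scores of 3100 in F9 and 3004 in F9+RA cells. In ES cells its Oct4 scores were 3100 and 2716 (Sox2 line), 2632 and 1608 (Sox2KE line), 3100 and 3100 (Sox17EK line) and 3100 (Sox17 line). Its Sox scores were 1252 and 1189 for Sox2, 2913 and 1611 for Sox17EK, 308 and 791 for Sox2KE and 332 and 206 for Sox17. The nearest Sox17 F9+RA peak lay 665249 bp away, the farthest among the 10.

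The other 9 lay on chromosome 15 at 25683543 to 25684953, chromosome 11 at 112731519 to 112732688, chromosome 14 at 58351047 to 58352175, chromosome 10 at 85001603 to 85003159 and chromosome 13 at 66811782 to 66812345. They continued on chromosome 9 at 114492884 to 114494496, chromosome 1 at 59432748 to 59434724, chromosome 18 at 13870881 to 13871619 and chromosome 5 at 92541229 to 92542249. Over the 10 sites the Oct4 F9 scores ran from 2515 to 3204, with 7 sites at 3100, a value that 134 peaks of that list share. Oct4 F9+RA scores ran from 1264 to 3117. Sox2 scores were 507 to 2104, Sox2KE scores 308 to 2213, Sox17EK scores 217 to 3114 and Sox17 scores 69.1 to 600.3. At 3 of them, on chromosomes 10, 13 and 9, a Sox17 F9+RA peak lay 487, 277 and 381 bp outside the Oct4 interval.

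The member of highest mean rank with no ES Sox peak lay on chromosome 7 at 51191342 to 51192548. Its Oct4 score was 3100 in F9 cells and 1231 in F9+RA cells. The ES scores (A and B) were 369 and 140 with Sox2, 884 and 597 with Sox2KE, 1874 and 721 with Sox17EK, and 1130 with Sox17 as the line's protein. The next was on chromosome 11 at 51547663 to 51548331 (1628 in F9, 903 in F9+RA), followed by chromosome 6 at 86246984 to 86247487 (269 and 233). The lowest rank of the 3 in any Oct4 list was 52.8, and they were chosen as the highest of the 68 by mean rank.

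A lysine-only member on chromosome 14, at 9235635 to 9236490, had Sox2 scores of 164 and 160 and Sox17EK scores of 451 and 211. Oct4 scored 2947 in F9 and 2330 in F9+RA cells. Among ES lines the scores were 394 and 172 with Sox2KE, 2711 and 1155 with Sox2, 3100 and 1700 with Sox17EK and 2047 with Sox17. On chromosome 5 at 73610268 to 73611584, Sox2 scored 902 and 683 and Sox17EK 326 and 100.3. Oct4 there scored 3100 and 1074 in the Sox2 line and 266 and 160 in the Sox2KE line. The remaining lysine-only site named by the same rule, on chromosome 7 at 72594979 to 72595693, had Oct4 scores of 540 and 327 in the Sox2KE line.

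The glutamate-only member of highest mean rank lay on chromosome 1 at 158648293 to 158649649. Sox2KE scored 67.0 and 989 there and Sox17 51.5 and 73.8. Oct4 scored 961 and 1036 with Sox2KE, 619 and 338 with Sox2, 796 and 310 with Sox17EK and 375 with Sox17 as the line's protein. In F9 and F9+RA cells Oct4 scored 512 and 475. The other 2 were on chromosome 1 at 71603382 to 71604223 and chromosome 14 at 55082374 to 55083898, with Sox17 scores of 87.2 and 129, and 144 and 126. The medians of the Sox17 lists were 82.2 (A) and 73.1 (B). The first site was below the median in A and just above it in B, and the other 2 were above it in both.

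Among members of the Sox2 forms alone, the site on chromosome 13 at 108709315 to 108710158 had an Oct4 score of 1262 in F9 cells and of 90.1 in F9+RA cells. Sox2 scored 398 and 267 and Sox2KE 235 and 439 there. The site on chromosome 1 at 135025856 to 135026881 had Sox2KE scores of 860 and 1669, Sox2 scores of 597 and 480, and Oct4 scores of 481 in F9 and 191 in F9+RA cells. The highest of this class by mean rank, on chromosome 18 at 34938065 to 34939373, had Sox scores of 86.1 to 143 and Oct4 scores of 878 and 297 in F9 and F9+RA cells.

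The number of members depended on how peaks were matched: with midpoints within 200 bp in place of overlap it was 2968. Within the overlap rule, few members lay at its limit. The smallest overlap with a required list was 1 bp, on chromosome 18 at 65743312 to 65744009, followed by 3 bp on chromosome 13 at 38244553 to 38244939 and 7 bp on chromosome 16 at 29682482 to 29683033. In all, 29 members (0.463%) met a list by under 50 bp. Just outside were Oct4 F9 peaks on chromosome 5 at 25059658 to 25060457 and chromosome 9 at 21048248 to 21049296, which missed 1 list by 1 bp, and on chromosome 10 at 17742883 to 17743323, which missed it by 3 bp. A further 4008 Oct4 F9 peaks without Sox17 lacked exactly 1 list. It was Oct4 of Sox2KE line B in 31.3%, of Sox2 line B in 23.3% and of the Sox17 line in 18.2%, the 3 shortest Oct4 lists. On the side of Sox17, 2 members, on chromosome 10 at 67011973 to 67012692 and chromosome 17 at 84353529 to 84355080, bordered a Sox17 F9+RA peak with 0 bp between. On chromosome 4 at 136158376 to 136159022 the gap was 3 bp.

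Members were spread unevenly over chromosomes. Chromosome 1 held 639 of them (10.2%) and 5.67% of comparison sites, and chromosome 14 held 369 (5.89%) and 3.44%. The whole Oct4 F9 list had 4.35% and 2.70% of its peaks there, and the Sox17 F9+RA list 3.08% and 2.41%. The ES Oct4 lists had 8.02% ± 0.361 and 4.61% ± 0.284 (SD, n = 7). Chromosome 12 went the other way, with 2.94% of members, 4.57% of comparison sites and 10.3% of the Sox17 F9+RA list. The share of universal sites without a Sox17 F9+RA peak was 61.0% on chromosome 1, 59.8% on chromosome 14 and 35.8% on chromosome 12, where it was 46.5% over all. Chromosome X, with 68 members, had the highest share, at 62.4%. Chromosomes 16, 18 and 19 held 2.87%, 2.90% and 2.85% of the Sox17 F9+RA list. Their mean parts of the ES Oct4 lists were close to these, at 3.14%, 3.07% and 2.96%, unlike those of chromosomes 1 and 14. The shares of universal sites without a Sox17 F9+RA peak there were 46.4%, 46.8% and 45.9%. These chromosomes do not stand for all others with similar parts of both lists. Chromosome 17 (4.49% and 4.41%) had a share of 41.8%, and chromosome 13 (4.22% and 4.35%) one of 49.5%. Chromosome X held 2.48% of the Sox17 F9+RA list and a mean of 1.59% of the ES Oct4 lists. The part of the chromosome in the result was not tested. Without chromosomes 1 and 14 the difference between residues at members was 10.9 points and the log2 contrast 0.69, each with an exact permutation p of 0.0286.

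**Figure D5:**
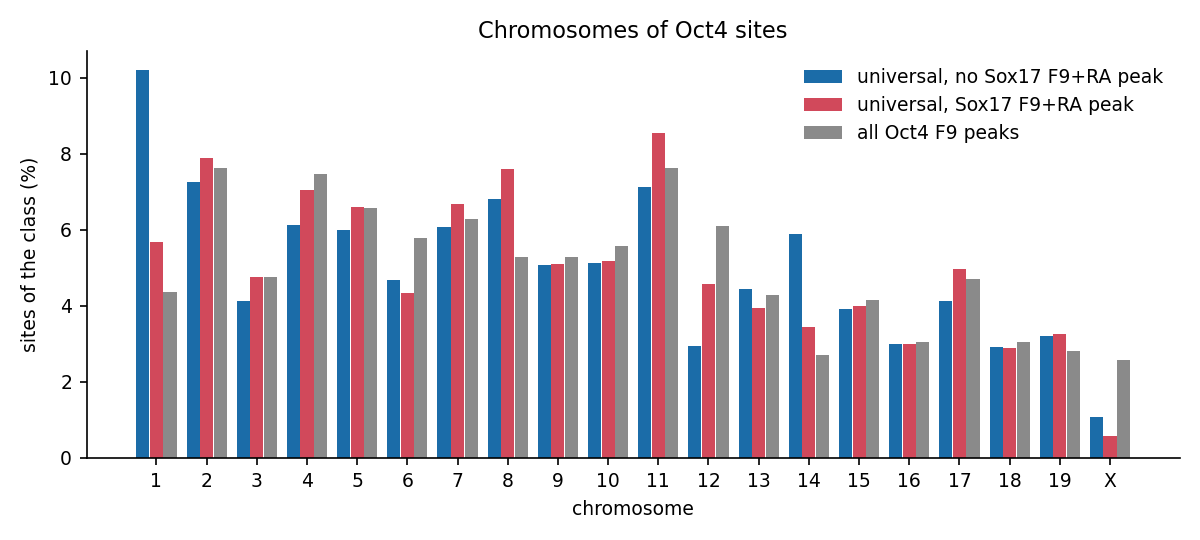
Bars give the percentage of the sites of a class (y axis) on each chromosome (x axis) for members (blue), universal sites with a Sox17 F9+RA peak (red) and all Oct4 F9 peaks (grey). Chromosome 1 holds 10.2% of members against 5.67% and 4.35%, and chromosome 12 holds 2.94% against 4.57% and 6.10%.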

How the data were processed

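Peak lists of 18 libraries were used. The 2 mock libraries were not used here. The deposited lists hold chromosome, start, end, a name with the MACS prefix and a score, and per the submitters' processing notes the build is mm9. The score was read as 10 times −log10 of the authors' p, an inference from the lowest values (50 to 50.03). Deposited starts were taken to count from 0 and are printed from 1. Aligner, caller settings and control were not given in the sources used here. Each library has a peak list of its own, and depth is unknown. Peaks were matched by overlap of at least 1 bp, taking the strongest overlapping peak. Ties in score share their mean rank. Equal list length took the 5836 strongest peaks, the length of the shortest ES Sox list. Intervals are exact (Clopper-Pearson, 95%). Permutation tests over libraries were exact and two-sided, with Benjamini-Hochberg adjustment over 4 planned tests at a threshold of 0.05. Matching and tests were checked on simulated lists.

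Members, lists and tests were chosen with earlier results of these data known. Named sites were the 10 members of highest mean Oct4 rank, the 3 highest in each of 5 classes of ES Sox presence, and those nearest to each limit of the rule. Positions stand in for genes, since the gene table used here is of build GRCm38. Alternatives changed the match, the minimum score, the list length, the libraries, the replicate block and the range of score or width. Python 3.11.15, NumPy 2.4.6, pandas 2.3.3, SciPy 1.17.1 and matplotlib 3.10.9 were used.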

Additional observations from a re-analysis of the deposited data

Results flagged for a closer look

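In 33 groups of libraries checked for a value far from the rest, 2 stood out, where chance flags about 1 in 20. Over whole lists, the share of members with a peak was 1.89 times that of all Oct4 F9 peaks for Sox2KE B, the lowest of the 8 ES Sox libraries, in the longest list. Among the 5836 strongest peaks it was 3.79 times for Sox2KE A, above the other 3 glutamate libraries (2.70 to 2.86).

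The log2 ratio of ES Sox shares, sites with over sites without a Sox17 F9+RA peak, differed by 0.64 between glutamate and lysine libraries (exact permutation p = 0.0286). Sox17, a glutamate protein, is also the protein that defined these classes of sites. The Oct4 rank of sites without minus sites with a Sox17 F9+RA peak differed by 12.6 percentile points between lysine and glutamate lines (exact permutation p = 0.0286). That contrast of ranks was chosen with its values in view, so its p-value is descriptive only.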

How the results depend on the processing

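The number of members was 2968 with midpoints within 200 bp as the match, 4521 with a minimum score of 100, 5653 without members within 1 kb of a Sox17 F9+RA peak, and 6272 to 7521 when 1 Oct4 list was left out of the rule. Lysine minus glutamate libraries at members was 8.83 points with whole lists (exact permutation p = 0.6). It was smallest, at 3.58 points, with the 1000 strongest peaks of each list, and 5.21 with a minimum score of 100. With midpoints within 200 bp it was 11.4, with V5-only libraries 9.63, and without 1 library 8.52 to 11.0. The log2 contrast was 0.45 with V5-only libraries and 0.56 to 0.73 without 1 library. Members minus comparison sites over all 8 libraries was 2.25 to 7.32 without 1 library, the extremes being without Sox2 B and without Sox17 A, and 2.54 without Sox2 A; it passed the threshold under no alternative. The own-line difference was 24.0 to 27.2 without 1 library and passed under all 4 other alternatives. The added contrast of Oct4 ranks was 12.6 with overlap of at least 50% of the shorter interval and 12.4 and 9.24 in the middle and widest groups of sites (exact permutation p = 0.0571 each), and 7.64 to 17.02 without 1 library. No result reversed under the alternatives run.

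With the replicate block (libraries exchanged within A or B), the values stayed at 9.42 points, 0.64 and 12.6 points, with an exact permutation p of 0.0556 each, the smallest this block allows. The tests of lysine against glutamate on V5-only libraries, and those of Oct4 ranks with 1 library fewer, cannot pass the threshold either. Across member sites, deviations of A from its group correlated by -0.04 to 0.11 over 6 pairs of Sox groups and by -0.05 to 0.19 over 3 pairs of Oct4 groups. Such correlations miss a shift common to all sites, and Sox groups were not set against Oct4 groups, so they cannot exclude pairing by letter. The Oct4 list of A was longer than that of B in the Sox2 (63038 and 32877 peaks), Sox2KE (54703 and 32848) and Sox17EK lines (68294 and 46709). Among Sox lists, A was longer for Sox2 and Sox17 and shorter for Sox2KE and Sox17EK. The alternatives on width, chromosomes and V5-only libraries were chosen after the data were seen.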

Other observations

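The spacing of members differed from that of the comparison sites in its median and, the other way, at short range. The median distance between midpoints of a member and its nearest fellow member was 51664 bp, against 41544 bp for universal sites with a Sox17 F9+RA peak. The classes hold 6268 and 7219 sites, and this distance falls as a class grows. The medians were not compared at equal numbers of sites. Another member lay within 5 kb of 861 members (13.7%), and another comparison site within 5 kb of 11.0% of comparison sites. The median gap from a member to the nearest Sox17 F9+RA peak was 11952 bp, and 615 members (9.81%) had such a peak within 1000 bp of their interval.

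The share of Oct4 F9 peaks with a Sox17 F9+RA peak rose with the number of other Oct4 lists that held them. It was 5.62% of the 8913 peaks found in no other list, 14.7% of the 5037 found in 4, 33.0% of the 5984 found in 7 and 53.5% of the 13487 found in all 8. Both quantities are those the rule used, so this rise is a description without a test. The 8 lists include Oct4 of the same F9+RA cells as the Sox17 list. Universal sites were also wider, at medians of 950 bp (members) and 1257 bp (comparison) against 699 bp in the whole F9 list.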
